A study of Sus scrofa with 11 samples.

Results

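Genes of matricellular proteins and fibronectin, 10 in all, were followed through full-thickness skin wounds of Yucatan minipigs on day 10. The 10 were fibronectin (FN1), the tenascins (TNC, TNN), periostin (POSTN), the SPARC family (SPARC, SPARCL1) and the thrombospondins (THBS1, THBS2, THBS3, THBS4). They were found by gene name, and all 10 were among the 30376 genes measured, with 1 entry each. Bulk RNA sequencing of polyA RNA covered 7 wounds of a diabetic minipig and 4 wounds of a non-diabetic minipig, with 1 library per wound. Diabetes had been induced in the first animal with intravenous streptozotocin, a toxin for the insulin-producing beta cells, and the insulin given afterwards was stopped before wounding. The other animal was wounded in the same way without induction, and the study's methods describe both as female. With 1 minipig per group, replicates are wounds on a shared animal, and diabetes and animal cannot be told apart.

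Matricellular proteins are secreted into the matrix, where they tune adhesion, growth factor access and fibril assembly rather than bear load. They are scarce in resting skin and are made in quantity in granulation tissue, mainly by fibroblasts. Fibronectin belongs to the structural matrix but acts with them: it is the early scaffold on which fibroblasts and keratinocytes migrate, and tenascin C and periostin bind to it.

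None of the 10 genes was called different between diabetic and non-diabetic wounds, against 3.00% of the 13956 genes tested (limma, adjusted p under 0.05 and absolute log2 fold change over 0.5). FN1 and POSTN lay closest to the threshold, both with lower levels in the diabetic wounds. The FN1 mean was 0.663 times (95% interval 0.527 to 0.835) and the POSTN mean 0.442 times (95% interval 0.272 to 0.718) the non-diabetic level on the log2(FPKM + 0.5) scale. These 2 of 10 had an unadjusted p under 0.05 with a change past the fold threshold, against 7.13% of all genes tested (3.65% lower). Run on recovered reads, limma's voom also called 0 of 10, against 2.92% of all genes. The other 8 genes differed by less than the spread between wounds, with intervals that reach from below to above 0. All values are the deposited FPKM, which are reads divided by gene length and by a factor per library, so levels can be compared between genes. That factor was 0.854 to 1.18 times the reads on genes, so it is not the library size alone.

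**Figure D1:**
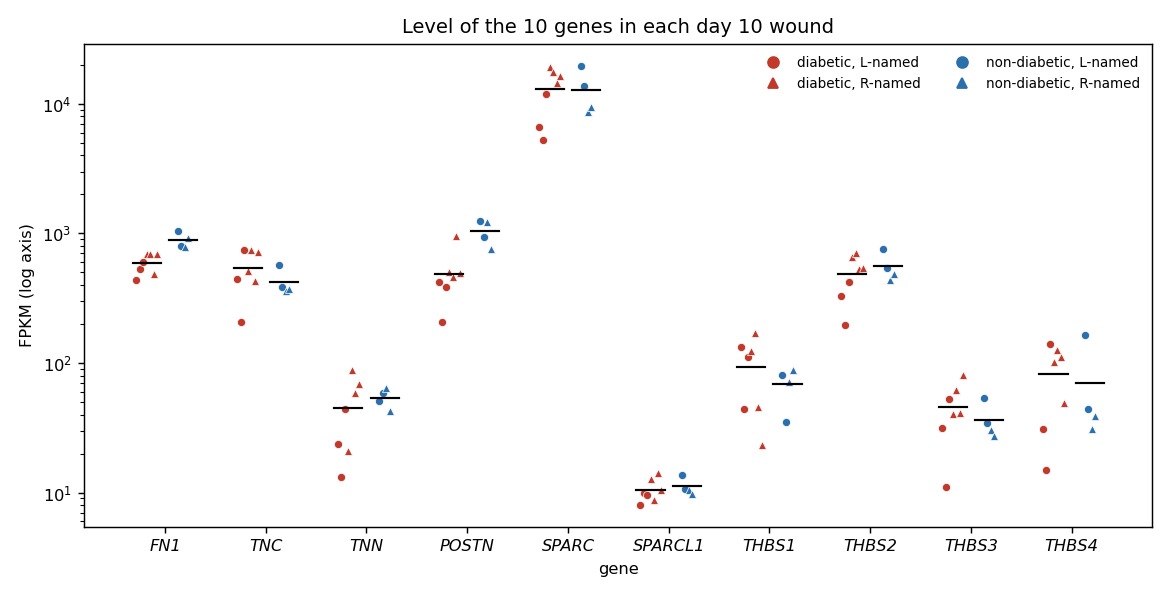
FPKM (log axis) of the 10 genes in each of the 11 wounds, with diabetic wounds in red, non-diabetic wounds in blue, circles and triangles for libraries named with L and R, and black bars at group means. FN1 is the gene whose groups do not overlap, and SPARC lies above the others in every wound.

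Libraries held 28314785 to 40168372 reads on genes in diabetic wounds and 32961018 to 36872400 in non-diabetic wounds, so counting error was small beside the spread between wounds even for SPARCL1, the least abundant of the 10, with at least 955 reads. Diabetic replicate 4 and non-diabetic replicate 1 stood apart from the other wounds along the leading principal component (44.5% of variance). Their summed keratinocyte markers were 54.1 and 314 FPKM, against 1754 to 6788 FPKM in the other 9 wounds, and their neutrophil markers 49.1 and 305 FPKM. Fibroblast markers, which define the cell type that makes most of these proteins, were present in every wound at 19308 to 65300 FPKM summed over 10 genes. In bulk tissue, fewer cells of a type and less RNA per cell cannot be told apart.

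SPARC, a collagen-binding glycoprotein needed for collagen fibril assembly, was the most abundant member in all 11 wounds and ranked 3 by mean FPKM among all genes. FN1 ranked 72, POSTN 74, THBS2 114 and TNC 119, while SPARCL1 ranked 4391. Together the 10 genes took a mean of 3.88% ± 1.02 (SD, n = 7) of the reads on genes in diabetic and 4.26% ± 0.744 (SD, n = 4) in non-diabetic wounds. In the non-diabetic wounds the order by mean level was SPARC, POSTN, FN1, THBS2, TNC, THBS4, THBS1, TNN, THBS3 and SPARCL1. POSTN lay above FN1 in 3 of 4 of these wounds, and THBS4 above THBS1 in 2 of 4, so these neighbours did not differ beyond their spread. In the diabetic wounds FN1 came next after SPARC, followed by TNC and POSTN. FN1 exceeded TNC there in 3 of 7 wounds and POSTN exceeded THBS2 in 3 of 7, so the order between FN1, TNC, POSTN and THBS2 was not settled.

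FN1 lies on the minus strand of chromosome 15 from 117658158 to 117737145 (Sscrofa11.1). Diabetic wounds held 436 to 696 FPKM with a median of 602, and the non-diabetic wounds 1041, 793, 783 and 915 FPKM in the order of replicates 1 to 4. The highest diabetic wound was thus below the lowest non-diabetic one. FN1 was the only one of the 10 genes without overlap, against 5.65% of all genes tested without overlap in either direction and 2.96% with every diabetic wound lower. Means were 590.0 ± 107 FPKM (SD, n = 7) and 883 ± 121 FPKM (SD, n = 4), which differed by -0.59 ± 0.15 (SE) on the log2 scale in limma, with an adjusted p = 0.0567. The two-sided exact permutation test of this gene alone gave p = 0.00606, where the smallest p that 330 splits allow is 0.00303. Within L-named wounds FN1 was 436 to 602 against 793 to 1041 FPKM, and within R-named wounds 488 to 696 against 783 to 915 FPKM. The values count all FN1 transcripts together, and the spliced forms that distinguish cellular from plasma fibronectin were not analysed here.

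POSTN, whose protein binds fibronectin, tenascin C and collagen I and signals through integrins, lies on the minus strand of chromosome 11 from 13225183 to 13258973. Diabetic wounds held 208 to 955 FPKM with a median of 459.7, and the non-diabetic wounds 1237, 945, 1228 and 751 FPKM. Of the 7 diabetic wounds 6 lay below the lowest non-diabetic wound, and diabetic replicate 6 was the exception at 955 FPKM, with the next diabetic wound at 505 FPKM. Means were 490.2 ± 228 FPKM (SD, n = 7) and 1040.3 ± 236 FPKM (SD, n = 4), which differed by -1.18 ± 0.32 (SE) on the log2 scale in limma, with an adjusted p = 0.0698. Permuting the wounds exactly (two-sided) gave p = 0.0121 for POSTN. Without diabetic replicate 6, limma called POSTN at -1.36 on the log2 scale, with an adjusted p = 0.0209, where 2.79% of all genes were called. Removing the highest diabetic wound can only lower the diabetic mean, so this call gives no separate support. Leaving out any other 1 wound did not call POSTN (limma, adjusted p from 0.0542 to 0.201, and 0.0209 to 0.210 over all alternatives). Within L-named wounds POSTN was 208 to 422 against 945 to 1237 FPKM, and within R-named wounds 459.7 to 955 against 751 to 1228 FPKM.

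**Figure D2:**
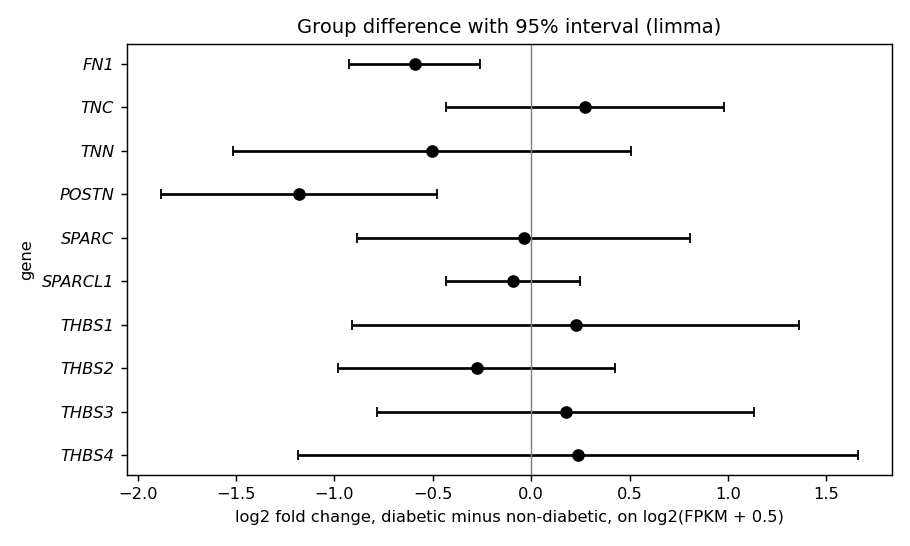
Log2 fold change, diabetic minus non-diabetic, on the log2(FPKM + 0.5) scale for the 10 genes, with points for limma's estimate over 7 and 4 wounds and bars for its 95% interval. The intervals of FN1 (-0.93 to -0.26) and POSTN (-1.88 to -0.48) lie below 0, before adjustment over all genes, and the other 8 include 0.

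The calls of FN1 and POSTN turned on the scaling and on covariates. With libraries scaled to the same sum of FPKM, both were called lower (limma, -0.67 and -1.25 on the log2 scale, adjusted p = 0.0161 and 0.0447), where 3.19% of all genes were called. Quantile normalization called both (2.69% of all genes), library weights called POSTN alone (5.89%), and a keratinocyte covariate called FN1 alone (3.88%). With the mean log2 level of the fibroblast markers as a covariate, both were called as well (-0.57 and -1.14, adjusted p = 0.00969 and 0.0217, limma), where 6.01% of all genes were called. Without diabetic replicate 4 and non-diabetic replicate 1 neither was called (-0.55 and -1.11, adjusted p = 0.146 and 0.198, limma), where 1.36% of all genes were called. Some markers of other cell types differed between the groups, where 1.35% of all genes tested were called higher and 1.66% lower. Of 10 macrophage markers 2 (CD14 and MRC1) were called higher and 9 had a positive log2 fold change (median 0.62). The macrophage list summed to 754 to 1716 FPKM in diabetic and 490.4 to 914 FPKM in non-diabetic wounds. Of 8 adipocyte markers, LEP and LPL were called lower, and 7 had a negative log2 fold change (median -0.99). The 1 that went up was FABP4, the most abundant, at 403 against 209.9 FPKM, and it was not called. The sums, in which FABP4 weighs most, overlapped at 298 to 876 and 328 to 535 FPKM. None of 10 fibroblast markers was called, with sums of 19308 to 53291 and 34542 to 65300 FPKM, and the part of macrophage or adipocyte content in the FN1 and POSTN levels was not tested.

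The 250 bases before the annotated gene start (RefSeq, Sscrofa11.1) are shown for FN1 and POSTN, the genes closest to the threshold, and for THBS1, which held the most motif matches of the 10. Both strands were searched for the TATA box (TATAAA), the cyclic AMP response element (TGACGTCA), the AP-1 site (TGANTCA), the GC box (GGGCGG) and the TEAD site (GGAATG), and matches are in capitals.
FN1: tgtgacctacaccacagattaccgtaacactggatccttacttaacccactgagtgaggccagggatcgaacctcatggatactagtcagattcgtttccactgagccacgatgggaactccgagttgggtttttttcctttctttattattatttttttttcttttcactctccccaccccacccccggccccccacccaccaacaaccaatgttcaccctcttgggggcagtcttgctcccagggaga
POSTN: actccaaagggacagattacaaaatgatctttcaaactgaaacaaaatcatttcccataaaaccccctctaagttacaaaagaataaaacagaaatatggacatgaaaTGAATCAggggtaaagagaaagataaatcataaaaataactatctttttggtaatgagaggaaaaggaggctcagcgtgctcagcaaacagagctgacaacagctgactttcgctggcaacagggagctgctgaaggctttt
THBS1: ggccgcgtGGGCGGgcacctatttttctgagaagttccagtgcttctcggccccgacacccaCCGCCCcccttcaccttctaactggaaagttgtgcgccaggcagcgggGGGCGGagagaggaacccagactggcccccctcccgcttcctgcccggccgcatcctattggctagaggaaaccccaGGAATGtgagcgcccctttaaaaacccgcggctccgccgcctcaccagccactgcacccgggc
The windows are chr15:117737146-117737395 (minus strand), chr11:13258974-13259223 (minus strand) and chr1:131746099-131746348 (minus strand). FN1 held none of the motifs. POSTN held an AP-1 match at position -142, with the gene start as 0, and 4.44% of the windows of 13953 tested genes held at least 1. THBS1 held 3 GC boxes, a motif found in 54.9% of windows, and a TEAD match at -63, found in 9.65%. Across the 10 genes, 3 held a GC box, 1 an AP-1 site, 1 a TEAD site, and 0 a TATA box (7.04% of all windows) or a cyclic AMP response element (2.01%). These are letter matches in windows set by the annotated start, which need not be the start used in wound tissue.

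TNC, a hexameric glycoprotein that loosens cell adhesion to fibronectin and appears at wound edges, lies on chromosome 1 from 255533235 to 255630381. Diabetic wounds held 205 to 748 FPKM with a median of 509, and the non-diabetic wounds 568, 388, 357 and 373 FPKM. Diabetic replicates 3, 5 and 7 lay above every non-diabetic wound and diabetic replicate 2 below every one, so the groups overlapped. The log2 fold change was 0.27 ± 0.32 (SE) by limma, with an adjusted p = 0.709 and a 95% interval of -0.43 to 0.98. TNN, a tenascin of more restricted expression on chromosome 9 from 117174743 to 117244041, held 13.3 to 88.0 FPKM in diabetic wounds, with a median of 44.2. Its non-diabetic values were 50.8, 58.2, 64.3 and 42.7 FPKM, all inside the diabetic range (limma, -0.50 ± 0.46 on the log2 scale (SE), adjusted p = 0.619).

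The balance between these partners was set out as ratios of FPKM within a library, which no scaling between libraries can change, as a description chosen after the values were seen and with no test. TNC over FN1 was 0.408 to 0.546 in the non-diabetic wounds and 0.740 to 1.24 in 6 of the 7 diabetic wounds, with diabetic replicate 2 at 0.387. POSTN over TNC was 2.01 to 3.44 in the non-diabetic wounds and 0.515 to 1.01 in 6 diabetic wounds, with diabetic replicate 6 at 2.22. POSTN over FN1 overlapped widely, at 0.822 to 1.57 and 0.392 to 1.96. Ratios of TNN over TNC, THBS2 over THBS1 and SPARC over SPARCL1 were also computed, and the groups overlapped in each. THBS2 over THBS1 was 5.54 to 15.5 in the non-diabetic and 2.48 to 23.3 in the diabetic wounds. SPARC over SPARCL1 was 836 to 1425 and 529 to 2016. The share of all gene pairs whose ratios part the groups as far as TNC over FN1 or POSTN over TNC was not counted.

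SPARC lies on chromosome 16 from 71368164 to 71380972. Diabetic wounds held 5222 to 19274 FPKM with a median of 14553, and the non-diabetic wounds 19624, 13770, 8728 and 9419 FPKM. The groups overlapped widely, with means of 13108 ± 5445 FPKM (SD, n = 7) and 12885 ± 5017 FPKM (SD, n = 4). The log2 fold change was -0.04 ± 0.39 (SE) by limma, with an adjusted p = 0.971, and the 95% interval of the ratio ran from 0.542 to 1.75. SPARCL1, or hevin, a SPARC relative found around vessels and in the nervous system, lies on chromosome 8 from 131386804 to 131431427. It held 8.03 to 14.3 FPKM in diabetic wounds, with a median of 9.86, and 13.8, 10.7, 10.4 and 9.80 FPKM in the non-diabetic wounds (limma, -0.09 ± 0.15 on the log2 scale (SE), adjusted p = 0.806). Its highest value was 1.78 times its lowest over the 11 wounds, against 3.76 times for SPARC.

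THBS1, which can release active TGF-beta from its latent complex and restrains vessel growth through CD36, lies on chromosome 1 from 131728781 to 131746098. Diabetic wounds held 23.4 to 171 FPKM with a median of 110.5, and the non-diabetic wounds 81.0, 35.0, 71.4 and 87.5 FPKM. Diabetic replicates 1, 3, 4 and 5 lay above and replicate 7 below every non-diabetic wound (limma, 0.23 ± 0.52 on the log2 scale (SE), adjusted p = 0.865). Platelets carry thrombospondin 1 protein, and the 7 platelet markers found summed to 2.92 to 5.51 FPKM in diabetic and 3.17 to 4.15 FPKM in non-diabetic wounds. THBS2, the close relative made by fibroblasts that limits matrix proteases, lies on chromosome 1 from 854473 to 882467. It held 195 to 711 FPKM in diabetic wounds, with a median of 531, and 761, 544, 436 and 485 FPKM in the non-diabetic wounds (limma, -0.28 ± 0.32 on the log2 scale (SE), adjusted p = 0.703). Of the diabetic wounds 3 lay below the lowest non-diabetic wound and 0 above the highest.

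THBS3 and THBS4 belong to the thrombospondins that assemble as pentamers and lack the type I repeats of THBS1 and THBS2. THBS3, on chromosome 4 from 94612702 to 94623905, held 10.99 to 80.6 FPKM in diabetic wounds, with a median of 41.0, and 53.6, 34.1, 30.3 and 27.1 FPKM in the non-diabetic wounds (limma, 0.18 ± 0.44 on the log2 scale (SE), adjusted p = 0.877). THBS4, known from tendon, muscle and nerve, lies on chromosome 2 from 88729531 to 88780759 and varied most, by 9.38 times among the diabetic and 5.29 times among the non-diabetic wounds. Diabetic wounds held 14.9 to 140.0 FPKM with a median of 102, and the non-diabetic wounds 165, 44.2, 31.1 and 38.8 FPKM. Its highest non-diabetic value belonged to replicate 1, a wound poor in keratinocyte markers and with the highest summed fibroblast markers (65300 FPKM). Diabetic replicate 4, also poor in keratinocyte markers, held 102 FPKM, the diabetic median. The part of either cell type in these values was not tested. The other 3 non-diabetic wounds lay inside the lower part of the diabetic range (limma, 0.24 ± 0.65 on the log2 scale (SE), adjusted p = 0.892). Without non-diabetic replicate 1 limma gave THBS4 0.76 on the log2 scale, with an adjusted p = 0.606 (0.279 to 0.993 over all alternatives). Diabetic replicate 3, the highest diabetic wound for THBS4, also carried skeletal muscle markers at 1834 FPKM in sum, against 1.34 to 5.34 FPKM in the other 10 wounds. Without diabetic replicate 3 the THBS4 log2 fold change was 0.05. Leaving out 1 other diabetic wound gave 0.074 (replicate 5) to 0.58 (replicate 2), with 0.11 without replicate 6 and 0.12 without replicate 4. Leaving out a wound cannot part its muscle tissue from a high THBS4 level of other source, and the part of muscle tissue was not tested.

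Diabetic replicate 2 had the lowest value of all 11 wounds in 7 of the 10 genes: TNC, TNN, POSTN, SPARC, THBS2, THBS3 and THBS4. It also had the lowest fibroblast markers, at 19308 FPKM in sum, and the part of these in its low values was not tested. SPARC followed the fibroblast markers closely over the 11 wounds (Pearson r = 0.99, Spearman rho = 0.99, and r = 0.98 without the 2 wounds farthest from the median of the markers). THBS2 did so with r = 0.94 (rho = 0.96, 0.86 without those wounds), THBS4 with 0.85 (rho = 0.84, 0.72) and THBS3 with 0.83 (rho = 0.82, 0.73). FN1 had r = 0.50 (rho = 0.39) and POSTN r = 0.46 (rho = 0.41), and r was -0.03 and -0.22 without those 2 wounds. These values mix in the difference between the groups, and within the 7 diabetic wounds r was 0.72 for FN1 and 0.67 for POSTN. THBS1 did not follow the markers, at r = 0.01 (rho = 0.14). These are descriptions over wounds that share an animal within each group, and no p is given.

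**Figure D3:**
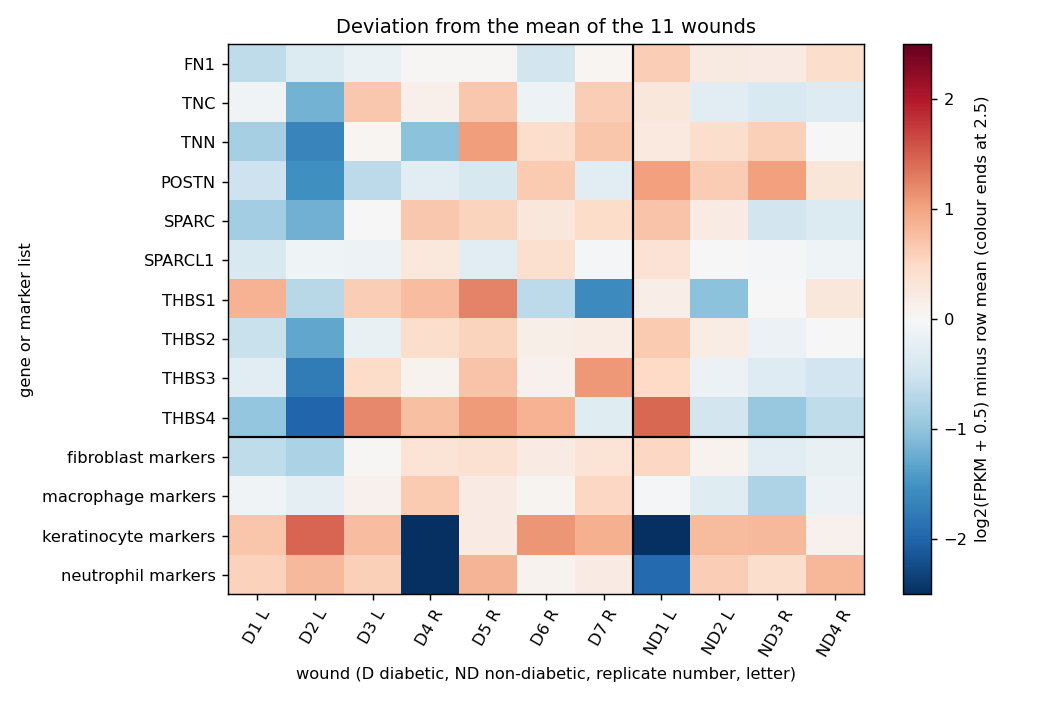
Deviation of log2(FPKM + 0.5) from the mean of the 11 wounds for the 10 genes, above the line, and for the mean of 4 marker lists, below it, with columns for the 7 diabetic (D) and 4 non-diabetic (ND) wounds, their replicate number and their letter. D2 is blue in most genes, and FN1 and POSTN are red across the ND wounds. In the keratinocyte markers D4 exceeds the blue end of the scale and ND1 lies just inside it.

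**Figure D4:**
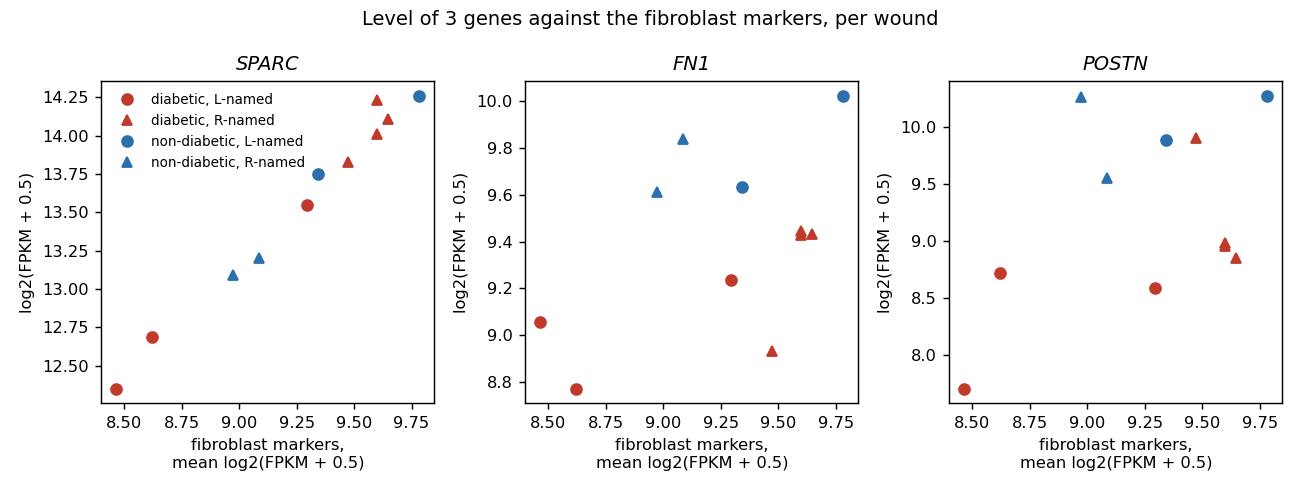
Log2(FPKM + 0.5) of SPARC, FN1 and POSTN against the mean log2 level of 10 fibroblast markers, 1 point per wound, coloured by group and shaped by letter. SPARC lies along a line with both groups mixed, while for FN1 the 4 non-diabetic wounds lie above all 7 diabetic wounds and for POSTN above 6 of 7.

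The genes whose pattern over the 11 wounds was most like each member were taken from 12505 tested genes with a symbol, by Pearson's r of log2(FPKM + 0.5). For SPARC they were CERCAM (r = 0.99), EFEMP2 (r = 0.99), which organises elastic fibres, and BMP1 (r = 0.99), the procollagen C-proteinase. For THBS2 they were FARP1 (r = 0.98), RPUSD1 (r = 0.98) and NFATC4 (r = 0.98). TNC was most like another member, THBS3 (r = 0.95, rho = 0.88), then MEST (r = 0.95) and ARFIP2 (r = 0.91). FN1 was most like GCAT (r = 0.97), CHN1 (r = 0.96) and BACE2 (r = 0.94). POSTN was most like PHF21B (r = 0.94) and NARF (r = 0.94). THBS3 was most like PHACTR3 (r = 0.96), TNC and CDYL (r = 0.95), and THBS4 like HSPB6, SLC37A1 and MED16 (r = 0.95, 0.95 and 0.94). SPARCL1 was most like FNBP1, GSTZ1 and C17H8orf48 (r = 0.95, 0.93 and 0.93), TNN like CDYL2, SUPT3H and PXDC1 (r = 0.89, 0.88 and 0.88), and THBS1 like the mitochondrial genes ND6 and CYTB (r = 0.89 and 0.87) and MPP6 (r = 0.88).

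Libraries are named with the letter L or R, whose meaning the labels do not give, and the study's methods describe wounds in rows on either side of the spine. The split was examined after the values were seen, with 3 diabetic and 2 non-diabetic L-named wounds and 4 and 2 R-named ones. In SPARC the diabetic L-named wounds held 5222 to 11962 FPKM and the R-named ones 14553 to 19274 FPKM, while the non-diabetic L-named wounds held 13770 and 19624 FPKM and the R-named ones 8728 and 9419 FPKM. The letters were thus ordered oppositely in the groups, with 2 non-diabetic wounds per letter, and the share of all genes ordered in this way was not counted. The log2 fold change of SPARC was -1.14 ± 0.42 (SE) in L-named wounds (limma, adjusted p = 0.283) and 0.90 ± 0.14 (SE) in R-named wounds (limma, adjusted p = 0.0229). In R-named wounds 10.2% of all genes were called (5.50% higher), and in L-named wounds 0.0541%. The interaction of group and letter in SPARC was 2.04 (R minus L, standard error 0.44, adjusted p = 0.0418, limma), and it was the 1 of 10 genes called, against 6.46% of all genes tested (3.76% positive).

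THBS2 came next, with an interaction of 1.49 ± 0.41 (SE, limma, adjusted p = 0.0555). Its diabetic wounds held 195 to 425 FPKM (L) and 531 to 711 FPKM (R). For the other 8 genes the interaction ran from -0.89 in THBS1 to 2.46 in THBS4, with adjusted p from 0.186 to 0.606 (limma). It was positive in 9 of 10, with a median of 1.08, against a median of -0.01 over all genes tested. The FN1 and POSTN means were below the non-diabetic means with either letter, at -0.81 and -1.74 on the log2 scale (L) and -0.42 and -0.74 (R), none of them called. Fibroblast markers showed the same pattern, with COL1A1, COL1A2, COL3A1, PDGFRB and COL6A3 called among 10 (median 1.34), and keratinocyte markers had a median of -2.97 with 0 of 12 called. The part of these cell types in the SPARC difference was not tested.

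**Figure D5:**
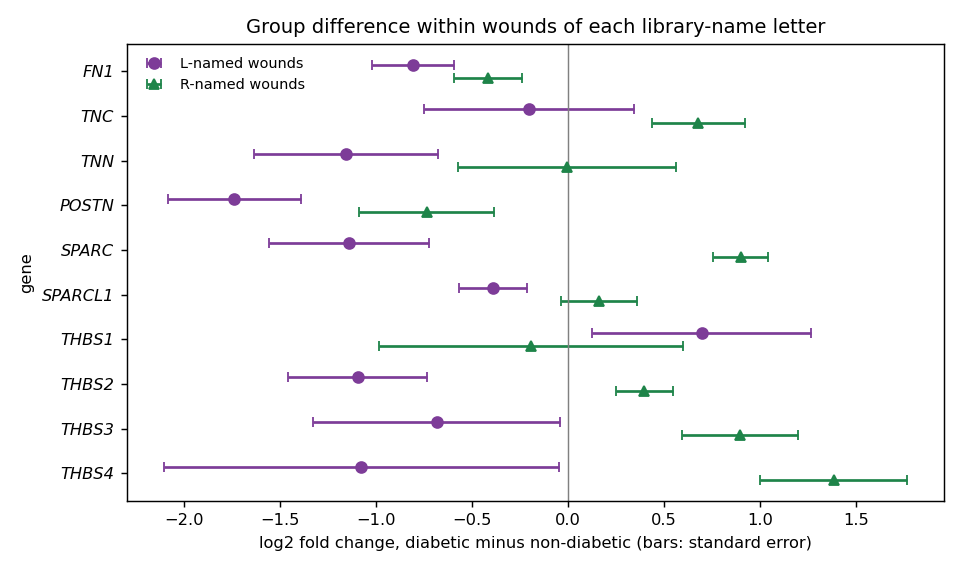
Log2 fold change, diabetic minus non-diabetic, of the 10 genes within L-named wounds (circles, 3 against 2) and R-named wounds (triangles, 4 against 2), with bars for limma's standard error. SPARC stands at -1.14 and 0.90, while FN1 and POSTN stay below 0 in both.

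Receptors and further members of the pathway were described by lists and their counts. Of 14 genes of fibronectin receptors and partners, 1 was called lower and 0 higher (median log2 fold change 0.04, against 0.01 over all genes tested, of which 1.35% were called higher and 1.66% lower). ITGA8, the integrin subunit that binds fibronectin and other ligands on mesenchymal cells, was the gene called, with 8.89 to 21.2 FPKM in diabetic and 25.6 to 38.6 FPKM in non-diabetic wounds (limma, -1.23 on the log2 scale, adjusted p = 0.0138). ITGA5, the main fibronectin receptor subunit, had 71.7 ± 16.2 FPKM (SD, n = 7) and 58.5 ± 6.40 FPKM (SD, n = 4) and was not called, nor was ANXA2, the most abundant of the list, at 739 against 697 FPKM. Of 15 receptors and partners of thrombospondins, tenascins and periostin, CD36 was called, with diabetic wounds at 15.4 ± 3.40 FPKM (SD, n = 7), all above the non-diabetic wounds at 7.21 ± 0.865 FPKM (SD, n = 4) (limma, 1.02 on the log2 scale, adjusted p = 0.00523). CD36 is a thrombospondin 1 receptor as well as a lipid and scavenger receptor of macrophages and adipocytes, and the part of macrophage content in its level was not tested. CALR, a chaperone and the most abundant gene of this list, was not called (340.2 against 369 FPKM), and the list had a median of -0.0013.

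Of 22 other matricellular genes tested, 2 were called higher and 2 lower, with a median log2 fold change of 0.29. SPP1, or osteopontin, an integrin ligand made by macrophages and stromal cells, had 18.3 to 52.0 FPKM in diabetic and 71.1 to 180.1 FPKM in non-diabetic wounds (limma, -1.90 on the log2 scale, adjusted p = 0.0160). The testican gene SPOCK1 was called lower (1.07 against 2.14 FPKM), and WISP1 (29.1 against 17.2 FPKM), a CCN family member, and SPOCK2 (5.75 against 3.29 FPKM) were called higher. TGFBI, the relative of periostin and the most abundant of this list, had 374 to 1301 FPKM and 871 to 1460.0 FPKM and was not called. Of 21 TGF-beta response genes, NOX4, an oxidase, was the 1 called, at 0.930 against 1.63 FPKM (limma, -0.57 on the log2 scale, adjusted p = 0.0240), and the list had a median of -0.13. COL3A1, its most abundant gene, was not called (12614 against 14812 FPKM). Together 7 genes of the 4 lists were called, where 14, 15, 22 and 21 genes were tested. TGFBI, CTGF and TGFB1 each stand in 2 lists, and the lists were chosen with earlier results of these data known. The number called was 3 without diabetic replicate 4 and non-diabetic replicate 1, where 1.36% of all genes were called, against 3.00% in the main fit. It was 2 without non-diabetic replicate 1 (1.31% of all genes), 4 without non-diabetic replicate 3 (1.44%) and 1 without non-diabetic replicate 4 (1.63%).

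Among the other marker lists, 1 of 7 tested tendon, cartilage and bone markers was called lower (ACAN), against 1.66% of all genes tested. Of 5 nerve and Schwann cell markers 1 was called higher (L1CAM), against 1.35% of all genes tested. None was called of 8 myofibroblast and smooth muscle, 12 keratinocyte, 10 endothelial, 6 neutrophil, 2 platelet and 2 skeletal muscle markers tested.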

How the data were processed

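RNA from 11 wounds was sequenced, 1 library per wound, from 1 minipig per group. The submitters' processing notes name fastp, HISAT2 2.2.1, StringTie 2.2.3, featureCounts 2.0.6 and the build Sscrofa11.1. The authors deposited FPKM values, whose formula is not given in the sources used here. Scaled by gene length and a factor per library, they were whole reads to within 0.05 for 100% of values. A gene was tested where 4 or more libraries reached 0.5 FPKM. The log2(FPKM + 0.5) values entered limma 3.58.1 (R 4.3.3, lmFit, then eBayes with trend), and p-values were adjusted over all these genes after Benjamini and Hochberg. All 10 members passed this filter. For each member, wound labels were also permuted exactly over 330 splits, two-sided. The p-values measure only how wounds vary within an animal.

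The members, the 4 pathway lists and the 11 marker lists were chosen with earlier results of these data known. The genes named are the 10 members, the called and most abundant genes of the pathway lists, and the 3 genes most like each member, of which 1 is not reported here. ITGA5, the ratios and the split by letter were chosen after values were seen. In 26 alternatives, the pseudocount, filter, scaling, spread, weights, covariates, replicate block and wounds were changed. The fit was tested on simulated data. Python 3.11.15, numpy 2.4.6, pandas 2.3.3 and matplotlib 3.10.9 were used.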

Additional observations from a re-analysis of the deposited data

Results flagged for a closer look

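TNC in diabetic replicate 2 was far from the other diabetic wounds, at 205 FPKM against 430.1 to 748 FPKM, with a gap of 0.572 of the group's log2 range, just past the critical value for 7 samples. It was 1 of 20 groups examined, and chance marks about 1 in 20.

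The difference of SPARC between diabetic and non-diabetic wounds differed between L-named and R-named wounds, by 2.04 on the log2 scale (95% interval 1.05 to 3.03, adjusted p = 0.0418, limma). The split rests on 2 non-diabetic wounds per letter, and 901 of all genes tested passed the same test.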

How the results depend on the processing

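The 419 genes called (188 higher, 231 lower) became 822 with library weights, 839 with the fibroblast covariate, 187 without diabetic replicate 4 and non-diabetic replicate 1, and 16 with the replicate block. With equal sums of FPKM they were 152 higher and 294 lower, and leaving out 1 wound gave 181 to 483, with 181, 248, 199 and 226 without non-diabetic replicates 1, 2, 3 and 4. Of the 10 members, 0 were called, against 2 with quantile normalization, equal sums of FPKM or the fibroblast covariate, and 1 with library weights (POSTN), with the keratinocyte covariate (FN1), or in R-named wounds alone (SPARC). Leaving out 1 wound gave 0 to 1, the latter POSTN without diabetic replicate 6. The 7 list genes called became 11 with the fibroblast covariate, 3 without the 2 set-apart wounds and 0 with the replicate block, and 1 to 8 when 1 wound was left out.

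FN1, TNN, POSTN, TNC and THBS2 kept their direction in the 26 alternatives other than the fits within a letter. FN1 ran from -0.74 to -0.49 and POSTN from -1.49 to -0.99, called in 4 and 5 of them. SPARC, near 0, turned to 0.27 with library weights, 0.041 with the fibroblast and 0.028 with the keratinocyte covariate, and 0.075 without the 2 set-apart wounds. Leaving out 1 wound, SPARC ran from -0.20 to 0.19, SPARCL1 from -0.17 to 0.0063, THBS1 from -0.068 to 0.51 and THBS4 from -0.031 to 0.76. With the replicate block, which compares same-numbered wounds only, THBS3 was -0.25 and THBS4 -0.10. In L-named wounds alone TNC was -0.20, THBS3 -0.69 and THBS4 -1.08, and in R-named wounds alone SPARC was 0.90, SPARCL1 0.16, THBS1 -0.20 and THBS2 0.40. The cause of these turns was not tested.

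The labels do not say that the replicate numbers pair wounds of the 2 animals. Correlations of same-numbered deviations were -0.27, 0.22, 0.07 and -0.48, which are too few to show whether a source is shared. The block removes degrees of freedom for a pairing that the labels do not give. Its contrast also rests on replicates 1 to 4 alone, because a diabetic wound with no non-diabetic wound of its number gets its own parameter. With 7 and 4 wounds of 1 animal each, the intervals of SPARC, THBS1, THBS3 and THBS4 still hold changes of more than 1.5 times in either direction.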
